A study of Mus musculus with 26 samples.

Results

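Wild-type (WT) S49 cells treated for 2 h with 8-CPT-cAMP were compared with untreated WT S49 cells. The comparison takes 3 and 4 arrays of a series of 26, chosen by the source labels, and covers 12724 of 22626 probe sets, which stand for 7435 genes. S49 is a mouse T lymphoma line, and 8-CPT-cAMP is a membrane-permeable analogue of cyclic AMP (cAMP) that activates protein kinase A (PKA). The treated WT arrays used are those of cells given the analogue for 2 h and, for the time course, for 6 h and 24 h (3 arrays each). D- (deathless) is an S49 variant that does not die when cAMP is raised, and its 3 arrays at 2 h and 4 untreated arrays were used for a test of the difference between the lines. All cells grew in suspension with heat-inactivated horse serum, and the label gives the dose as 100 mM, whose unit may be an error. Titles of the treated WT arrays say untreated with a time, whereas their source and description fields name the analogue, and they were taken as treated. The untreated arrays are of time 0, with no vehicle named, so the analogue and 2 h in culture cannot be told apart. The labels call the replicates biological and describe no separate cultures, so the spread behind each p-value is that of these samples and may be technical.

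As background, cAMP releases the catalytic subunits of PKA from their regulatory subunits. The kinase then phosphorylates transcription factors of the CREB family, which bind cAMP response elements in promoters and switch on a fast set of regulators, many of which act back on cAMP, G protein and MAP kinase signalling. In WT S49 cells raised cAMP stops the cell cycle in G1 and later causes apoptosis, in which the BH3-only protein BIM (gene Bcl2l11) is known to take part.

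Every level below is log2 of the authors' GCRMA intensity on 1 array, and every difference is the 2 h mean minus the untreated mean on that scale, with its standard error from the limma fit. A gene was called when its p-value, adjusted by Benjamini-Hochberg over all probe sets tested, was under 0.05. Where a group mean lay under log2 5 (an intensity of 32), the difference is given as a bound, with that mean set at 5, and any value called fitted is the model's own estimate, which the compression of dim values makes unsure. Pearson's r, taken over probe sets that are not independent of each other, was 0.984 to 0.993 between 2 h arrays, 0.982 to 0.995 between untreated arrays and 0.946 to 0.969 between the groups. Of 9 T cell markers on the array, 8 had a mean of log2 5 or more in both groups and Cd5 did not, while 2 of 7 B cell, 2 of 10 myeloid, 1 of 4 erythroid and 3 of 8 fibroblast or endothelial markers (Vim, Pecam1 and Acta2) did. The summed level of the T cell markers was log2 14.3 to 14.5 at 2 h and 14.6 to 14.8 untreated, and that of the fibroblast and endothelial markers 12.6 to 13.7 at 2 h and 11.7 to 13.2 untreated. Their part in the results was not tested. The 3′ minus 5′ signal of Gapdh, a sign of RNA quality, was -0.066 ± 0.085 at 2 h and -0.053 ± 0.147 untreated (SD, n = 3 and 4). The deviations of the 26 arrays from their group means fell along 1 leading axis with 38.8% of their variance, and its sign put 2 h replicate 1 and untreated replicates 1 and 2 in a cluster apart from the other arrays of the comparison. Of 120 called genes named in the text, 30 did not pass within that cluster, which has 1 treated array, and their values there are given where they differ by over 1.5 times.

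After 2 h, 831 of the 7435 genes had risen (11.2%) and 1032 had fallen (13.9%), which together is 25.1% of the genes. Among called genes with both group means at log2 5 or more, 255 rose and 188 fell by at least 2-fold. The median fitted log2 difference was 0.76 over all 831 genes that rose and -0.65 over all 1032 that fell. Over all genes tested it was -0.01. These medians include called genes with a group mean under log2 5. The largest fitted difference among the 7435 genes was that of Sgip1, an endocytic adaptor better known from neurons, which had 10.96, 12.11 and 11.95 on the 2 h arrays, against 4.31, 3.21, 3.91 and 3.22 on the untreated arrays. It was at least 6.67 on the log2 scale higher (adjusted p = 2.73e-14), and the groups lay far apart. At the other end Ptcra, the pre-T-cell-receptor alpha chain that pairs with the beta chain in immature thymocytes, had 5.94, 5.07 and 4.43 on the 2 h arrays, against 9.70, 10.03, 9.29 and 9.26 on the untreated arrays (log2 difference -4.42 ± 0.47, 21.4-fold lower, adjusted p = 3.73e-07). In 1733 of the 1863 called genes the 2 h and untreated arrays did not overlap. A call already selects genes whose groups differ, so this count is no separate support for the calls. It was not made over all genes. Within the cluster that holds 2 h replicate 1, 695 probe sets were called, and within the other cluster 3392, against 3136 over all arrays. Of the 7435 genes, 48 passed the filter on dim probe sets only through the WT 2 h arrays, so for them the filter favoured high values there.

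**Figure D1:**
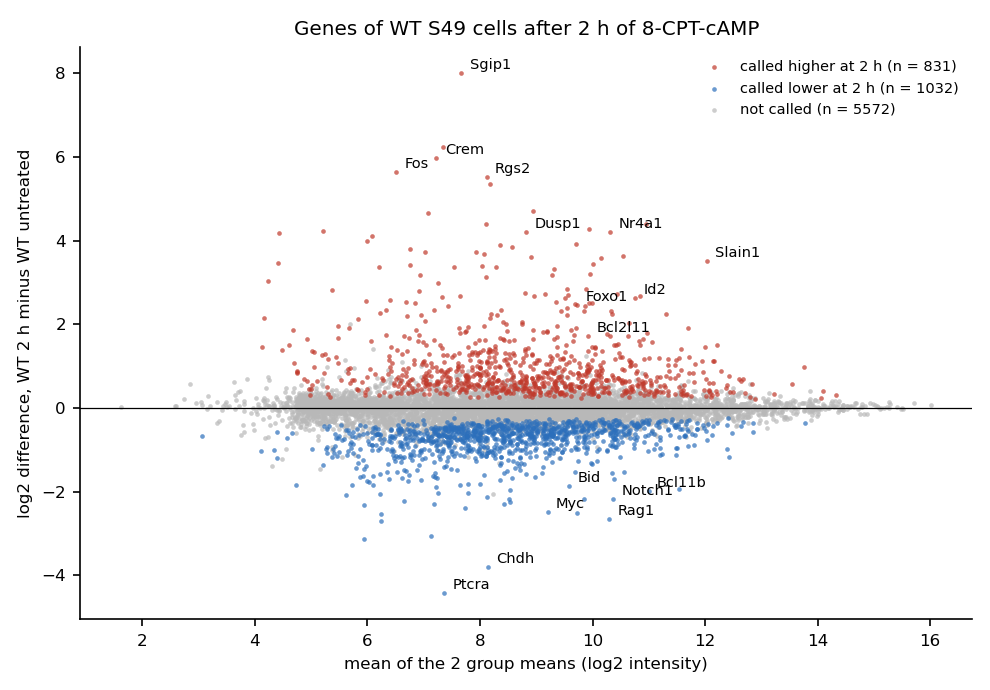
Each point is 1 of 7435 genes, with the mean of the 2 group means (log2 intensity) on the x axis and the log2 difference of WT 2 h minus WT untreated on the y axis. Red points (831) were called higher, blue points (1032) lower and grey points (5572) neither. Sgip1 stands highest, and Ptcra, then Chdh, lowest.

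Many transcription factors that cAMP is known to induce rose within 2 h, among them Crem, Fos, Nr4a1 and Nfil3. Of 25 measured members of that list, 10 rose and 1 fell (Cebpb, which like other genes given by name alone was added after the values were seen), with a median log2 difference of 0.65, against 11.2% and 13.9% of all genes. Crem, whose short internal product ICER is a repressor of cAMP-responsive promoters, had 11.10, 10.09 and 9.46 on the 2 h arrays, against 4.26, 4.17, 4.32 and 4.19 on the untreated arrays. It was at least 5.22 on the log2 scale higher (adjusted p = 1.04e-08). Fos, a subunit of the AP-1 factor and a classical early CREB target, had 9.51, 8.75 and 9.73 on the 2 h arrays, against 3.61, 3.45, 3.29 and 4.39 on the untreated arrays (at least 4.33 on the log2 scale higher, adjusted p = 3.66e-10). No 2 h array of either gene came near an untreated one. The orphan nuclear receptor gene Nr4a1, known for its induction in T cells and thymocytes, had 12.67, 12.49 and 12.09 on the 2 h arrays, against 8.93, 8.11, 7.26 and 8.50 on the untreated arrays. It was on at a moderate level before treatment and rose by a log2 difference of 4.22 ± 0.29 (18.6-fold higher, adjusted p = 5.68e-10). Nfil3, a repressor of the basic leucine zipper class, had 8.98, 7.24 and 7.76 on the 2 h arrays, against 4.15, 4.51, 3.48 and 3.85 on the untreated arrays (at least 2.99 on the log2 scale higher, adjusted p = 4.64e-07). The treated values of Crem and Nfil3 were highest on 2 h replicate 1.

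Other inducible factors moved less. Id2, an inhibitor of E-protein transcription factors in lymphocytes, had 11.59, 12.31 and 12.32 on the 2 h arrays, against 9.44, 8.81, 9.34 and 10.19 on the untreated arrays (log2 difference 2.63 ± 0.28, 6.17-fold higher, adjusted p = 2.89e-07). Per1, a clock repressor with cAMP response elements in its promoter, had 8.55, 8.89 and 8.34 on the 2 h arrays, against 6.52, 6.71, 6.49 and 6.98 on the untreated arrays (log2 difference 1.92 ± 0.31, 3.78-fold higher, adjusted p = 7.14e-05). Groups did not overlap for either gene. Junb, an AP-1 partner of FOS, had 7.31, 8.52 and 8.36 on the 2 h arrays, against 5.87, 5.89, 5.82 and 5.74 on the untreated arrays (log2 difference 2.23 ± 0.39, 4.7-fold higher, adjusted p = 0.000168). Its 2 h replicate 1 was the lowest treated array, and within the cluster that holds it the difference was 1.43 (adjusted p = 0.016). Maff, a small MAF factor, was at least 0.76 on the log2 scale higher (adjusted p = 2.68e-08), with all untreated arrays between 2.61 and 2.88 and the treated arrays between 4.77 and 6.56. With a pseudocount of 16 its fitted difference was 1.67, which is 3.04 without one. The constitutive activator Creb1 did not pass (log2 difference 0.25, adjusted p = 0.155), nor did Jun, 0.23 (adjusted p = 0.127), and Nr4a2, a relative of Nr4a1, 0.18 (adjusted p = 0.179). Without 2 h replicate 1 these 3 passed, at log2 differences of 0.41, 0.33 and 0.28 and adjusted p of 0.019, 0.034 and 0.049. With array weights Jun passed at 0.29 (adjusted p = 0.022) and Nr4a2 at 0.23 (adjusted p = 0.046), and over all its probe sets Creb1 passed at 0.39 (adjusted p = 0.0072). Sik1, a kinase that limits CREB co-activators, had 7.24, 7.64 and 6.64 on the 2 h arrays, against 6.01, 6.08, 6.06 and 6.10 on the untreated arrays, so the groups did not overlap, with a log2 difference of 1.11 (adjusted p = 0.0609). It passed in 6 of the alternatives, with adjusted p down to 0.0079 in a fit of these groups alone.

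Promoter windows of RefSeq genes on build GRCm38.p6, 250 bases before to 50 after each start, were searched on both strands for the full cAMP response element TGACGTCA and its core TGACG, which the full element contains. The full element was in a window of 46 of 674 genes that rose (6.82%), 22 of 840 that fell (2.62%) and 158 of 4593 not called (3.44%). It was in a window of 3.7% of all genes tested and 2.03% of all genes in the table. Counted per window, it was in 1.79% of all 32851 windows. Among genes that rose by a log2 difference of 2 or more it was in 9 of 79 (11.4%). The core was in 48.7% of genes that rose, 34.9% of those that fell and 37.2% of those not called. It was in 38.1% of all genes tested, 23% of all genes in the table and 20.8% of all single windows. These shares describe letters in a window, with no test, and a gene with several starts has several windows. Btg2, which rose, holds the full element 166 bases before its start and is not printed. The windows below are those of 4 other genes named here that rose and hold the full element. Those of Fos, Nr4a1 and Rgs2, which rose strongly and hold the core only, follow. Capitals mark every copy of the element or its core on either strand, and each runs 5′ to 3′ on the gene's strand.
Dusp1 (chr17:26508423-26508722, minus strand): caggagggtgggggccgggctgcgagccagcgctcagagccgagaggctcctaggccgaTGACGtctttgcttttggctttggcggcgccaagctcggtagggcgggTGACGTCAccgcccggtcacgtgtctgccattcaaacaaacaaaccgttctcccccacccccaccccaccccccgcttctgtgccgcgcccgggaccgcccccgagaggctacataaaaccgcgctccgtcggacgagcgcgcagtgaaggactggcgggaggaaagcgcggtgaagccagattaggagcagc
Ppp1r15a (chr7:45526219-45526518, minus strand): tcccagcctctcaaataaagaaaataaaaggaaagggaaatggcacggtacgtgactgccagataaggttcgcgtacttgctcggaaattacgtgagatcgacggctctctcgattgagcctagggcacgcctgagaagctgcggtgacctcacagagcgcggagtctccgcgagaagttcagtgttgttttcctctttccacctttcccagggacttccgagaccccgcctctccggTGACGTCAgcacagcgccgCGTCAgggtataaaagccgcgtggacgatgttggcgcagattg
Maff (chr15:79347270-79347569, plus strand): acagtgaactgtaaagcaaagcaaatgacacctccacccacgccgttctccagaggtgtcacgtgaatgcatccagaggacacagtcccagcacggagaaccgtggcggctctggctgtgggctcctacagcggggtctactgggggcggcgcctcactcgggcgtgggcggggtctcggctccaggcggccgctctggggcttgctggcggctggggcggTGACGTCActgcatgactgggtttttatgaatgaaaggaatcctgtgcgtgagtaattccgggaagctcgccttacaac
Prkar1a (chr11:109650612-109650911, plus strand): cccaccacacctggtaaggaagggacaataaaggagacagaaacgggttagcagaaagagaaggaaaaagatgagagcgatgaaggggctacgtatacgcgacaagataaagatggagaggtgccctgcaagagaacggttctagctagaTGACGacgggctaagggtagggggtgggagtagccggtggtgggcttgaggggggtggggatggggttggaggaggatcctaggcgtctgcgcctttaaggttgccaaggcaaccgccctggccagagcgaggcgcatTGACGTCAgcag
Fos (chr12:85473640-85473939, plus strand): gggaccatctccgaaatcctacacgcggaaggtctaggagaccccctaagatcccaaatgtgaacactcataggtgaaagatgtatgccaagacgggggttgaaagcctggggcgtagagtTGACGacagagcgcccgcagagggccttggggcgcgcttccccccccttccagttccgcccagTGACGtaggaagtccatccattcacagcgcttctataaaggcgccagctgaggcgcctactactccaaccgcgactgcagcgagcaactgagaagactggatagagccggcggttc
Nr4a1 (chr15:101266596-101266895, plus strand): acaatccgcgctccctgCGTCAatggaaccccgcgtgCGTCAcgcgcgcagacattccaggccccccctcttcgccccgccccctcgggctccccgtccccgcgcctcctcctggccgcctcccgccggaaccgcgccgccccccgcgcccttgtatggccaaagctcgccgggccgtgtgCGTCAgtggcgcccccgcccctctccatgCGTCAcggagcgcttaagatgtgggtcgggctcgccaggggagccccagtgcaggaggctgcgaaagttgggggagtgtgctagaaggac
Rgs2 (chr1:144004100-144004399, minus strand): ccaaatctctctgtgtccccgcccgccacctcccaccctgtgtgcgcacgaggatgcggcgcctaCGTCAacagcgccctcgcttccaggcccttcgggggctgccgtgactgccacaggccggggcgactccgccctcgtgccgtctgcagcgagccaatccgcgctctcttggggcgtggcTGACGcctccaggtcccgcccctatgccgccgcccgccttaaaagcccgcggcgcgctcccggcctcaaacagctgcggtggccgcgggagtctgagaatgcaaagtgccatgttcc
The full element begins 143 bases before the start of Dusp1, 12 before that of Ppp1r15a, 29 before that of Maff and 38 after that of Prkar1a. Outside the full element, the windows of Dusp1, Ppp1r15a and Prkar1a hold 1 more core each and that of Maff none. The windows of Fos and Rgs2 hold 2 cores each and that of Nr4a1 holds 4.

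Genes that act back on the signal moved in both directions, with Rgs2, Dusp1 and Dusp10 far higher and Dusp2 lower. Of 29 measured feedback genes of cAMP, G protein and MAP kinase signalling, 7 rose and 6 fell (24.1% and 20.7%, against 11.2% and 13.9% of all genes). Rgs2, which shortens G protein signalling, had 10.76, 10.87 and 10.996 on the 2 h arrays, against 6.58, 4.24, 5.57 and 5.03 on the untreated arrays. It rose more than any other member (log2 difference 5.52 ± 0.33, 45.9-fold higher, adjusted p = 7.06e-11), with treated arrays close together and untreated ones scattered. Within the cluster of 2 h replicate 1 its log2 difference was 5.35, with an adjusted p of 0.057. The MAP kinase phosphatase genes went different ways. Dusp1 had 10.40, 11.19 and 11.20 on the 2 h arrays, against 6.67, 5.58, 6.91 and 7.71 on the untreated arrays (log2 difference 4.22 ± 0.42, 18.6-fold higher, adjusted p = 1.4e-07). Dusp10, whose product acts on p38 and JNK, had 12.20, 12.48 and 12.36 on the 2 h arrays, against 8.85, 8.43, 8.90 and 8.71 on the untreated arrays (log2 difference 3.63 ± 0.31, 12.4-fold higher, adjusted p = 1.3e-08). Dusp2, a phosphatase of activated lymphocytes, fell, with 7.18, 6.87 and 6.86 on the 2 h arrays, against 7.82, 8.33, 8.30 and 7.97 on the untreated arrays (log2 difference -1.14 ± 0.23, 2.2-fold lower, adjusted p = 0.00085).

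Among genes that act on cAMP itself, the phosphodiesterase gene Pde4b, whose enzyme breaks cAMP down, had 5.997, 7.07 and 6.85 on the 2 h arrays, against 4.82, 4.81, 4.59 and 4.63 on the untreated arrays. It was at least 1.64 on the log2 scale higher (adjusted p = 0.000231), with no overlap, and its fitted difference of 1.93 was 1.18 within the cluster of 2 h replicate 1. Prkar1a, the regulatory subunit of PKA, had 11.64, 11.75 and 11.98 on the 2 h arrays, against 10.89, 10.90, 10.89 and 10.96 on the untreated arrays (log2 difference 0.88 ± 0.10, 1.84-fold higher, adjusted p = 1.26e-06). The groups did not overlap. Prkaca, the catalytic subunit, did not pass, at 0.26 (adjusted p = 0.265). Spred2, an inhibitor of RAS and ERK signalling, rose (log2 difference 1.23 ± 0.20, 2.35-fold higher, adjusted p = 9.01e-05), and Rgs3, another G protein inhibitor, was lower, with a log2 difference of -1.01 or more negative (adjusted p = 0.00253). Over all its tested probe sets the difference of Rgs3 was -0.51, against -1.05 for the one used.

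**Figure D2:**
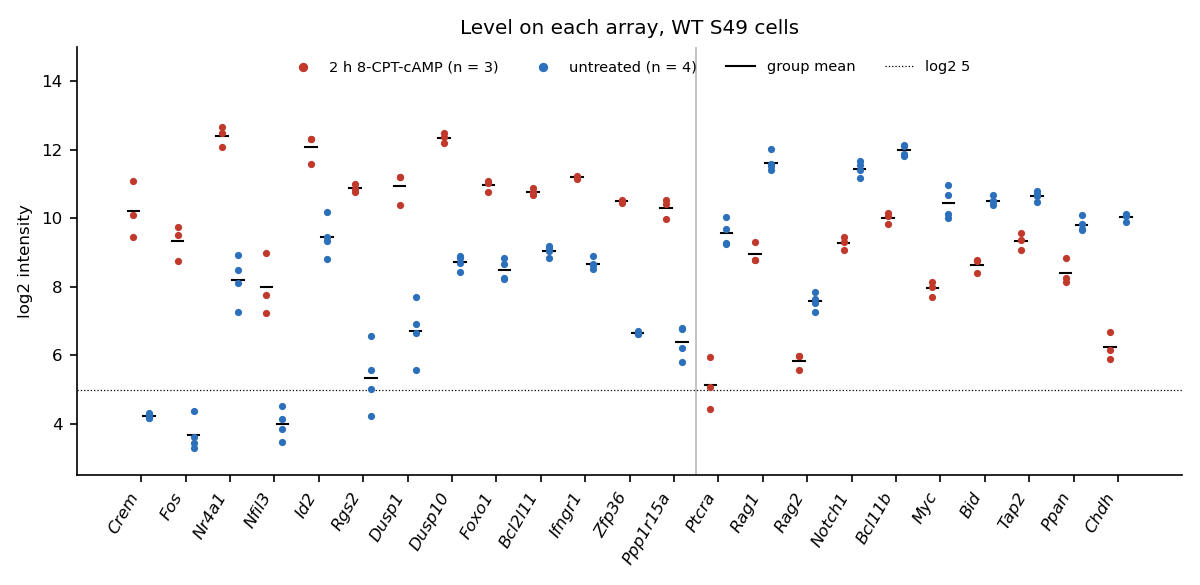
Points are arrays of WT S49 cells, with log2 intensity on the y axis, red for 2 h of 8-CPT-cAMP (n = 3) and blue, to the right, for untreated cells (n = 4). Bars are group means and the dotted line marks log2 5. Red lies above blue without overlap for the 13 genes on the left, from Crem to Ppp1r15a, and below it for the 10 on the right, from Ptcra to Chdh.

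Among genes of the death machinery Bcl2l11 and Casp8 rose and Bid and Bak1 fell. As a list they stood near the background, since of 31 measured 5 rose and 4 fell (Bid, Birc5, Bak1 and Casp9). That is 16.1% and 12.9%, against 11.2% and 13.9% of all genes. The list also counts the transcription factor gene Foxo1, its largest riser, so the share that rose is not of death machinery alone. Bcl2l11, which encodes the BH3-only killer BIM, had 10.69, 10.87 and 10.78 on the 2 h arrays, against 9.19, 8.86, 9.05 and 9.13 on the untreated arrays. It rose (log2 difference 1.72 ± 0.22, 3.3-fold higher, adjusted p = 3.93e-06) and all 4 of its other probe sets passed in the same direction, with a mean over the 5 of 2.61. Foxo1, a transcription factor that BIM expression is known to depend on in lymphocytes, had 11.03, 10.77 and 11.08 on the 2 h arrays, against 8.23, 8.26, 8.83 and 8.67 on the untreated arrays (log2 difference 2.46 ± 0.20, 5.51-fold higher, adjusted p = 5.71e-09). Pdcd4, a translation inhibitor, rose (log2 difference 1.60 ± 0.25, 3.02-fold higher, adjusted p = 4.18e-05), as did the initiator caspase gene Casp8 (log2 difference 0.89 ± 0.12, 1.85-fold higher, adjusted p = 5.41e-06). Mcl1, which protects cells against BIM, had 11.41, 11.89 and 11.89 on the 2 h arrays, against 10.90, 10.85, 11.16 and 11.17 on the untreated arrays (log2 difference 0.71 ± 0.15, 1.64-fold higher, adjusted p = 0.00105). The groups of Mcl1 did not overlap, but over its 6 probe sets the mean difference was 0.28 (adjusted p = 0.033), and 1 of the other 5 passed in the same direction.

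Bid, a BH3-only gene whose product is cut by caspase 8, went the other way, with 8.79, 8.76 and 8.40 on the 2 h arrays, against 10.51, 10.68, 10.50 and 10.40 on the untreated arrays (log2 difference -1.87 ± 0.14, 3.66-fold lower, adjusted p = 1.53e-09). Bak1, a pore-forming effector, fell by less (log2 difference -0.53 ± 0.12, 1.44-fold lower, adjusted p = 0.00219). The protective genes Bcl2, at 0.19 (adjusted p = 0.434), and Bcl2l1, at 0.03 (adjusted p = 0.884), did not pass, and their groups overlapped. Without 2 h replicate 2 the count of fallers in this list was 2, against 4 over all arrays.

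Several genes of immature T cells fell, among them Ptcra (given above), Rag1, Rag2, Notch1 and Bcl11b, while other genes of the lineage rose. Of 27 measured genes of V(D)J recombination, the pre-T-cell receptor and T lineage control, 9 rose and 9 fell, against 11.2% and 13.9% of all genes, and 7 of the fallers fell by at least 2-fold against 2 of the risers. Rag1, which cuts DNA for antigen receptor assembly, had 8.80, 9.32 and 8.79 on the 2 h arrays, against 11.40, 11.57, 12.01 and 11.53 on the untreated arrays (log2 difference -2.66 ± 0.27, 6.32-fold lower, adjusted p = 1.44e-07). Its partner Rag2 had 5.99, 5.97 and 5.58 on the 2 h arrays, against 7.86, 7.66, 7.54 and 7.28 on the untreated arrays (log2 difference -1.74 ± 0.27, 3.34-fold lower, adjusted p = 5.19e-05). The 2 h arrays lay under the untreated ones for both genes. Notch1, the receptor that commits progenitors to the T lineage, had 9.06, 9.47 and 9.31 on the 2 h arrays, against 11.18, 11.66, 11.55 and 11.42 on the untreated arrays (log2 difference -2.17 ± 0.34, 4.51-fold lower, adjusted p = 4.97e-05). Notch3 fell too (log2 difference -1.29 ± 0.26, 2.44-fold lower, adjusted p = 0.000727). Bcl11b, a factor that fixes T cell identity, fell as well, with 9.83, 10.06 and 10.14 on the 2 h arrays, against 11.81, 11.88, 12.10 and 12.14 on the untreated arrays (log2 difference -1.97 ± 0.17, 3.93-fold lower, adjusted p = 2.03e-08). Hes1, a NOTCH target gene, rose (log2 difference 1.62 ± 0.19, 3.07-fold higher, adjusted p = 1.75e-06), with treated arrays between 9.04 and 9.38 and untreated ones between 7.30 and 7.95. Leaving out 2 h replicate 2 reduced the count of risers in this list to 3.

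Of 28 measured T cell receptor, co-receptor and proximal signalling genes, 10 rose and 7 fell (35.7% and 25%, against 11.2% and 13.9% of all genes). Ptpn22, Ctla4 and Txk were among those that rose, and Cd8b1, Cd2 and Sla among those that fell. Ptpn22, a phosphatase that holds back proximal kinases, had 11.94, 11.84 and 12.06 on the 2 h arrays, against 8.45, 7.98, 8.71 and 8.29 on the untreated arrays (log2 difference 3.59 ± 0.17, 12.1-fold higher, adjusted p = 1.81e-12). Ctla4, an inhibitory receptor, had 8.96, 10.19 and 9.88 on the 2 h arrays, against 6.76, 5.72, 6.33 and 7.35 on the untreated arrays (log2 difference 3.13 ± 0.39, 8.76-fold higher, adjusted p = 2.85e-06). Its co-stimulatory counterpart Cd28 rose by less (log2 difference 1.30 ± 0.33, 2.46-fold higher, adjusted p = 0.00487). Txk, a TEC-family kinase, was at least 3.66 on the log2 scale higher (adjusted p = 5.37e-05), with 2 h replicate 1 the lowest treated array at 7.63 and the other two at 8.97 and 9.37. The adaptor genes Sla and Sla2, whose products take receptors off the surface, moved apart, since Sla fell (log2 difference -1.76 ± 0.33, 3.39-fold lower, adjusted p = 0.000378) and Sla2 rose (log2 difference 1.96 ± 0.14, 3.88-fold higher, adjusted p = 1.05e-09). Cd8b1, a chain of the CD8 co-receptor, had 9.35, 8.65 and 8.77 on the 2 h arrays, against 10.91, 10.86, 9.96 and 10.04 on the untreated arrays (log2 difference -1.52 ± 0.23, 2.87-fold lower, adjusted p = 4.05e-05). The adhesion receptor gene Cd2 fell too (log2 difference -1.62 ± 0.30, 3.08-fold lower, adjusted p = 0.000283). Cd3e, 0.23 (adjusted p = 0.691), and Cd4, 0.08 (adjusted p = 0.714), did not pass and overlapped.

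Genes for interferon receptors rose, namely Ifngr1, Ifngr2 and Ifnar1. Of 29 measured genes of cytokine receptors, JAK, STAT and SOCS proteins, 13 rose, 2 fell (Il27ra and Tgfbr1) and 14 did not pass. The 44.8% that rose stand against 11.2% of all genes. Ifngr1, a chain of the interferon gamma receptor, had 11.23, 11.20 and 11.16 on the 2 h arrays, against 8.91, 8.52, 8.66 and 8.63 on the untreated arrays (log2 difference 2.52 ± 0.19, 5.73-fold higher, adjusted p = 2.78e-09). The other chain, Ifngr2, had 7.75, 8.24 and 8.34 on the 2 h arrays, against 5.40, 5.98, 5.61 and 5.36 on the untreated arrays (log2 difference 2.52 ± 0.39, 5.74-fold higher, adjusted p = 4.78e-05). Ifnar1, of the type I interferon receptor, had 9.21, 9.54 and 9.45 on the 2 h arrays, against 7.23, 7.13, 7.24 and 7.14 on the untreated arrays (log2 difference 2.22 ± 0.18, 4.65-fold higher, adjusted p = 9.63e-09). All treated arrays of the 3 genes lay above all untreated ones. Stat3 rose (log2 difference 1.84 ± 0.28, 3.58-fold higher, adjusted p = 4.59e-05). Stat5b rose by less (log2 difference 0.88 ± 0.11, 1.84-fold higher, adjusted p = 3.93e-06), although over both of its probe sets the mean difference was 1.79. Jak2 (log2 difference 0.78 ± 0.20, 1.72-fold higher, adjusted p = 0.00585) and Tgfbr2, a TGF-beta receptor (log2 difference 1.28 ± 0.25, 2.43-fold higher, adjusted p = 0.000468), rose too.

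Some interferon-inducible genes rose, among them Irf8, Irf1 and Igtp, with values that differed widely between the treated arrays. Of 23 measured, 8 rose, 3 fell (Tap2, Bst2 and Psmb8) and 12 did not pass, and without 2 h replicate 3 the count of risers was 5. The shares of 34.8% and 13.04% stand against 11.2% and 13.9% of all genes. Irf8, a factor of interferon responses, had 9.80, 11.45 and 11.70 on the 2 h arrays, against 7.33, 7.33, 8.06 and 7.90 on the untreated arrays (log2 difference 3.33 ± 0.35, 10-fold higher, adjusted p = 2.69e-07). Irf1 had 10.21, 11.32 and 11.75 on the 2 h arrays, against 8.87, 8.75, 8.52 and 8.42 on the untreated arrays (log2 difference 2.45 ± 0.34, 5.47-fold higher, adjusted p = 1.05e-05). The immunity-related GTPase gene Igtp had 9.20, 10.97 and 11.998 on the 2 h arrays, against 7.24, 6.85, 7.03 and 7.28 on the untreated arrays (log2 difference 3.62 ± 0.58, 12.3-fold higher, adjusted p = 7.04e-05). Its relative Irgm2 had 7.48, 9.90 and 10.83 on the 2 h arrays, against 4.79, 4.71, 4.83 and 4.62 on the untreated arrays. Another relative, Irgm1, had 7.95, 8.97 and 10.01 on the 2 h arrays, against 7.80, 7.77, 7.32 and 7.39 on the untreated arrays. Irgm2 was at least 4.41 on the log2 scale higher (adjusted p = 5.16e-06) and Irgm1 rose by a log2 difference of 1.41 ± 0.40 (2.65-fold higher, adjusted p = 0.012), but Irgm1 did not pass without 2 h replicate 3 (0.89, adjusted p = 0.14) or within the cluster of 2 h replicate 1 (0.16, adjusted p = 0.81), while within the other cluster it was 2.14. In each of these 5 genes 2 h replicate 1 was the lowest treated array, and within its cluster the log2 differences of Irgm2, Igtp and Irf1 were 2.73, 2.16 and 1.40. The level of Ifng, the gene for interferon gamma itself, was 3.76, 7.89 and 6.78 on the 2 h arrays, against 2.64, 2.67, 2.67 and 2.67 on the untreated arrays, so the same treated array was lowest. Ifng was at least 1.14 on the log2 scale higher (adjusted p = 0.00241), its fitted 3.48 was 2.13 with a pseudocount of 16 and 1.10 within that cluster. The part of that array in these differences was not tested. Ifit1, induced by type I interferon, did not follow that order, with 10.37, 9.38 and 10.55 on the 2 h arrays, against 8.80, 7.68, 7.94 and 8.70 on the untreated arrays (log2 difference 1.82 ± 0.43, 3.53-fold higher, adjusted p = 0.00306). Tap2, a peptide transporter gene of antigen presentation, fell (log2 difference -1.32 ± 0.15, 2.5-fold lower, adjusted p = 5.94e-07).

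Genes known to respond to glucocorticoids, which also kill these cells, rose more often than any other list described here. Of 15 measured, 9 rose and 2 fell (Fkbp5 and Cxcr4), with a median log2 difference of 1.21. The shares of 60% and 13.3% stand against 11.2% and 13.9% of all genes. Dusp1, Bcl2l11 and Tgfbr2, given above, are among them. Zfp36, whose product binds AU-rich elements and speeds mRNA decay, had 10.46, 10.51 and 10.54 on the 2 h arrays, against 6.70, 6.63, 6.63 and 6.64 on the untreated arrays (log2 difference 3.85 ± 0.21, 14.4-fold higher, adjusted p = 1.74e-11) and nearly equal values within each group. Tsc22d3, the glucocorticoid-induced leucine zipper, had 11.51, 11.24 and 11.69 on the 2 h arrays, against 9.48, 9.06, 8.76 and 9.59 on the untreated arrays (log2 difference 2.26 ± 0.19, 4.79-fold higher, adjusted p = 1.48e-08), and over its 3 probe sets the mean difference was 1.40. The kinase gene Sgk1 had 10.32, 10.88 and 10.80 on the 2 h arrays, against 8.92, 7.45, 8.35 and 8.998 on the untreated arrays (log2 difference 2.24 ± 0.34, 4.71-fold higher, adjusted p = 3.84e-05). The receptor gene Nr3c1 had 11.50, 11.99 and 12.01 on the 2 h arrays, against 11.22, 11.31, 11.30 and 11.41 on the untreated arrays, without overlap, and a log2 difference of 0.52 (adjusted p = 0.116). Nr3c1 passed in 6 alternatives, among them the mean over its 3 probe sets at 1.19 (adjusted p = 0.001) and the cluster of arrays as a block at 0.44 (adjusted p = 0.0061).

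Myc and part of the genes for making ribosomes fell. Myc, the growth-promoting transcription factor, had 8.01, 7.70 and 8.16 on the 2 h arrays, against 10.12, 10.01, 10.98 and 10.67 on the untreated arrays (log2 difference -2.49 ± 0.30, 5.63-fold lower, adjusted p = 2.07e-06). It was the only member of 13 measured genes of the MYC, MAX and MXD network that passed, and its partner Max did not (log2 difference -0.14, adjusted p = 0.862). Of 48 measured genes of ribosome biogenesis and RNA polymerase I, none rose and 20 fell (41.7% of them, against 13.9% of all genes), with a median of -0.42. Ppan, needed for the large ribosomal subunit, had 8.86, 8.14 and 8.25 on the 2 h arrays, against 9.85, 10.08, 9.69 and 9.66 on the untreated arrays (log2 difference -1.41 ± 0.27, 2.65-fold lower, adjusted p = 0.000412). Wdr12, another large subunit factor, had 10.05, 9.86 and 9.81 on the 2 h arrays, against 11.10, 11.09, 11.13 and 10.99 on the untreated arrays (log2 difference -1.17 ± 0.12, 2.25-fold lower, adjusted p = 2.31e-07). Rrs1 fell by a similar amount (log2 difference -1.10 ± 0.12, 2.14-fold lower, adjusted p = 6.08e-07), as did Surf6 (log2 difference -1.0 ± 0.22, 2-fold lower, adjusted p = 0.00151). Groups did not overlap for these 4 genes. Wdr43 fell (log2 difference -1.31 ± 0.23, 2.48-fold lower, adjusted p = 0.000223), but its difference was -0.87 (adjusted p = 0.059) within the cluster of 2 h replicate 1 and -0.84 over its probe sets. Gnl3, the nucleostemin gene, fell (log2 difference -1.16 ± 0.32, 2.24-fold lower, adjusted p = 0.00894), and did not pass without 2 h replicate 3, the lowest array (-0.94, adjusted p = 0.073). The abundant nucleolar genes Npm1, 0.12 (adjusted p = 0.43), and Ncl, -0.13 (adjusted p = 0.501), did not pass. Without 2 h replicate 3 the list held 12 fallers, and within the cluster of 2 h replicate 1 it held 3.

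Of 25 measured genes of nutrient transport and glycolysis 4 rose and 3 fell (16% and 12%), near the 11.2% and 13.9% of all genes. Slc2a3, the glucose transporter GLUT3, had 11.41, 11.96 and 12.02 on the 2 h arrays, against 8.91, 8.70, 8.57 and 10.08 on the untreated arrays (log2 difference 2.73 ± 0.31, 6.66-fold higher, adjusted p = 7.09e-07). Hk2, the hexokinase that traps glucose, had 10.26, 10.77 and 10.70 on the 2 h arrays, against 9.26, 9.07, 9.06 and 10.28 on the untreated arrays (log2 difference 1.16 ± 0.33, 2.23-fold higher, adjusted p = 0.0115), so untreated replicate 4 overlapped the treated arrays. It did not pass without 2 h replicate 2 (1.06, adjusted p = 0.053). The glutamine transporter genes moved apart, since Slc38a1 rose (log2 difference 1.15 ± 0.19, 2.22-fold higher, adjusted p = 0.000104) and Slc1a5 fell (log2 difference -1.12 ± 0.14, 2.17-fold lower, adjusted p = 4.04e-06). Without 2 h replicate 2 the list held 2 risers, and without untreated replicate 3 it held 1 faller.

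The cell cycle inhibitor gene Cdkn1b rose, whereas few genes of DNA replication and mitosis passed. Of 25 measured G1 genes, 7 rose and 3 fell (E2f6, Ccne1 and E2f1), of 45 DNA replication genes none rose and 2 fell, and of 38 mitotic genes 2 rose and 3 fell. G1 genes that rose were 28%, against 11.2% of all genes, and those that fell 12%, against 13.9%. Replication and mitosis lay below the background, with 4.44% and 13.2% called in either direction, against 25.1%. Without 2 h replicate 2 the G1 list held 1 faller. The mitotic list held 0 risers without untreated replicate 1, and it held 0 fallers without 2 h replicate 2. Cdkn1b, the cyclin-dependent kinase inhibitor p27, had 9.84, 10.71 and 10.33 on the 2 h arrays, against 8.50, 8.22, 8.93 and 9.45 on the untreated arrays (log2 difference 1.52 ± 0.30, 2.86-fold higher, adjusted p = 0.000624). Antiproliferative genes of the BTG and TOB family rose. The G1 list counts Tob2 of this family as its largest riser, so these genes are not separate from its 28%. Tob2 had 10.43, 10.87 and 10.91 on the 2 h arrays, against 8.13, 8.52, 8.34 and 8.39 on the untreated arrays (log2 difference 2.39 ± 0.24, 5.25-fold higher, adjusted p = 1.74e-07). Btg1 rose by a log2 difference of 1.21 ± 0.21 (2.31-fold higher, adjusted p = 0.000137) and Btg2 by a log2 difference of 1.18 ± 0.26 (2.26-fold higher, adjusted p = 0.00169). Tob1 rose (log2 difference 1.002 ± 0.31, 2-fold higher, adjusted p = 0.0221), but did not pass when untreated replicate 1 (0.95, adjusted p = 0.053), untreated replicate 2 (0.85, adjusted p = 0.075), 2 h replicate 2 (0.90, adjusted p = 0.09) or 2 h replicate 3 (0.96, adjusted p = 0.076) was left out. The D-type cyclin genes Ccnd3, -0.24 (adjusted p = 0.441), and Ccnd2, 0.28 (adjusted p = 0.445), did not pass. Within the cluster that holds 2 h replicates 2 and 3, Ccnd2 passed at 0.54 (adjusted p = 0.0043).

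Several stress genes rose, with Ppp1r15a and Gadd45a furthest among those named. Of 29 measured p53 targets and stress response genes, 10 rose and 1 fell (Zmat3), which is 34.5% and 3.45%, against 11.2% and 13.9% of all genes. Ppp1r15a, whose product GADD34 brings a phosphatase to the translation factor eIF2 alpha, had 9.98, 10.52 and 10.41 on the 2 h arrays, against 6.78, 6.22, 5.80 and 6.81 on the untreated arrays (log2 difference 3.91 ± 0.24, 15-fold higher, adjusted p = 1.21e-10). Gadd45a, a growth arrest gene, had 11.55, 11.75 and 11.35 on the 2 h arrays, against 8.69, 7.90, 8.10 and 8.70 on the untreated arrays (log2 difference 3.21 ± 0.27, 9.22-fold higher, adjusted p = 1.3e-08). Ddit4, an inhibitor of mTORC1 signalling, had 11.37, 11.51 and 11.59 on the 2 h arrays, against 9.33, 9.05, 9.74 and 10.96 on the untreated arrays (log2 difference 1.72 ± 0.32, 3.29-fold higher, adjusted p = 0.000374), with untreated replicate 4 the closest to the treated arrays. Eif2ak3, the kinase PERK of the endoplasmic reticulum, rose (log2 difference 1.78 ± 0.16, 3.44-fold higher, adjusted p = 2.28e-08), and so did Edem1, which sends misfolded proteins for degradation (log2 difference 1.13 ± 0.16, 2.18-fold higher, adjusted p = 1.57e-05). Ccng2, a cyclin that accompanies growth arrest, rose (log2 difference 2.52 ± 0.39, 5.72-fold higher, adjusted p = 4.79e-05). Atf4, the transcription factor downstream of eIF2 alpha phosphorylation, did not pass (log2 difference -0.27, adjusted p = 0.257). In the NF-kB list 3 of 16 rose (Tnfaip3, Nfkbiz and Tnip1) and 1 fell, so 25% were called, as against 25.1% of all genes. The one that fell was Nfkbia, the inhibitor IkB alpha (log2 difference -1.02 ± 0.21, 2.03-fold lower, adjusted p = 0.000746), and Tnfaip3, the inhibitor A20, was at least 0.88 on the log2 scale higher (adjusted p = 0.00233).

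**Figure D3:**
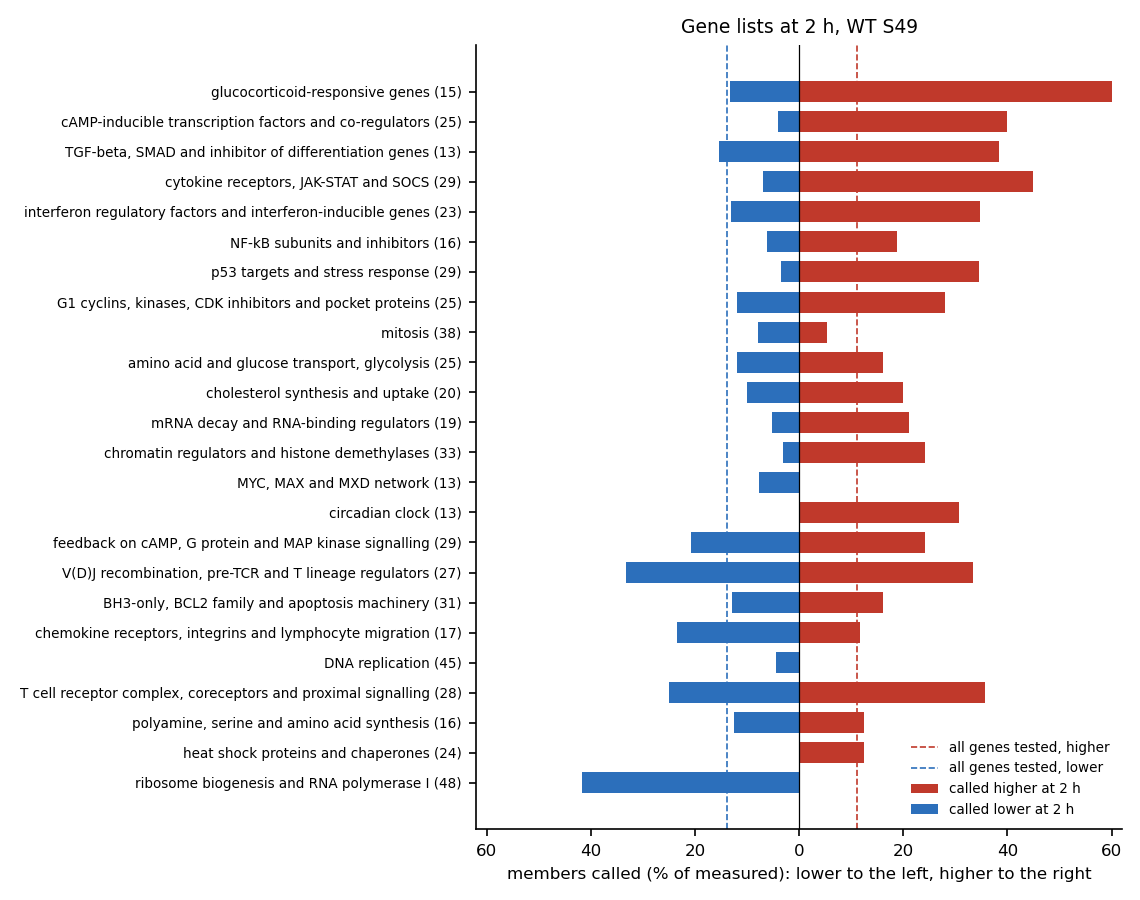
Bars give, for each of 24 gene lists with the number of measured members in parentheses, the percentage called higher (red, to the right) and lower (blue, to the left) at 2 h in WT cells. Dashed lines give the same for all 7435 genes (11.2% and 13.9%). Bars of ribosome biogenesis genes extend furthest to the left, with none to the right, and those of glucocorticoid-responsive genes furthest to the right.

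Many of the largest differences were in genes outside these lists. Tceal1, of the transcription elongation factor A-like family, had 10.52, 11.01 and 11.04 on the 2 h arrays, against 5.60, 5.19, 5.29 and 5.92 on the untreated arrays (log2 difference 5.36 ± 0.25, 41-fold higher, adjusted p = 1.42e-12). Vps37b, a subunit of the ESCRT-I complex, had 11.06, 11.69 and 11.15 on the 2 h arrays, against 6.51, 6.81, 6.54 and 6.46 on the untreated arrays (log2 difference 4.72 ± 0.31, 26.3-fold higher, adjusted p = 3.23e-10). Maged1, of the MAGE family, had 12.76, 13.28 and 13.38 on the 2 h arrays, against 8.45, 8.37, 8.93 and 9.23 on the untreated arrays (log2 difference 4.40 ± 0.28, 21.1-fold higher, adjusted p = 1.84e-10). No treated array of these 3 genes overlapped an untreated one, which was a condition for choosing them. Olig3, better known as a neural transcription factor, rose by a log2 difference of 4.40 ± 0.31 (21.1-fold higher, adjusted p = 8.05e-10). Amot, the scaffold angiomotin, had 11.41, 9.76 and 10.23 on the 2 h arrays, against 5.09, 6.24, 2.87 and 2.75 on the untreated arrays. It was at least 5.47 on the log2 scale higher (adjusted p = 9.21e-07), with 2 untreated arrays above log2 5 and the other two under 3, and over its 3 probe sets the mean difference was 2.68. Nabp1, a single-stranded DNA binding protein gene, rose by a log2 difference of 4.29 ± 0.36 (19.5-fold higher, adjusted p = 1.14e-08).

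Surface and secreted proteins were also among the genes that moved most. Tnfrsf18, the co-stimulatory receptor GITR, had 9.74, 9.60 and 10.07 on the 2 h arrays, against 6.14, 5.65, 6.002 and 6.45 on the untreated arrays (log2 difference 3.74 ± 0.42, 13.4-fold higher, adjusted p = 8.08e-07). Cd53, a tetraspanin of leukocytes, had 10.81, 11.95 and 12.26 on the 2 h arrays, against 7.29, 6.40, 8.997 and 8.35 on the untreated arrays (log2 difference 3.91 ± 0.78, 15.1-fold higher, adjusted p = 0.000692), with untreated arrays spread widely. Wif1, a secreted WNT inhibitor, rose by a log2 difference of 3.68 ± 0.28 (12.8-fold higher, adjusted p = 3.49e-09). Ramp3, which partners the calcitonin-receptor-like receptor, was at least 1.53 on the log2 scale higher (adjusted p = 2.08e-07), and its fitted 4.20 was 2.38 with a pseudocount of 16. Acer2, an alkaline ceramidase gene, was at least 3.14 on the log2 scale higher (adjusted p = 7.45e-08), and Sgtb, a co-chaperone gene, was at least 2.33 on the log2 scale higher (adjusted p = 2.93e-07). The nuclear lamin gene Lmna rose (log2 difference 3.73 ± 0.29, 13.2-fold higher, adjusted p = 4.41e-09), by 2.17 over both its probe sets. Slain1, of a microtubule-binding family, had 13.78, 13.76 and 13.82 on the 2 h arrays, against 10.59, 10.21, 10.22 and 10.10 on the untreated arrays (log2 difference 3.51 ± 0.15, 11.4-fold higher, adjusted p = 4.53e-13). Tex2 had 11.68, 11.75 and 11.78 on the 2 h arrays, against 8.53, 8.42, 8.20 and 7.99 on the untreated arrays (log2 difference 3.45 ± 0.13, 10.9-fold higher, adjusted p = 2.73e-14). The groups of Slain1 and Tex2 did not overlap, which was a condition for choosing them.

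Among the genes that fell most, Chdh, the choline dehydrogenase of mitochondria, had 6.16, 5.89 and 6.68 on the 2 h arrays, against 10.08, 10.11, 9.90 and 10.10 on the untreated arrays (log2 difference -3.81 ± 0.25, 14-fold lower, adjusted p = 3.54e-10). Il10, an anti-inflammatory cytokine gene, had 4.31, 5.38 and 4.996 on the 2 h arrays, against 7.09, 7.25, 7.95 and 8.04 on the untreated arrays and was lower, with a log2 difference of -2.58 or more negative (adjusted p = 5.62e-05). Plxdc1, a plexin-domain receptor gene, was lower, with a log2 difference of -2.50 or more negative (adjusted p = 2.65e-05). Ccnb1ip1, a ubiquitin ligase gene known for its part in meiotic recombination, fell (log2 difference -3.05 ± 0.25, 8.28-fold lower, adjusted p = 7.67e-09). Nrp1, the co-receptor neuropilin 1, had 7.08, 7.83 and 6.95 on the 2 h arrays, against 9.51, 9.11, 9.73 and 9.96 on the untreated arrays (log2 difference -2.29 ± 0.28, 4.89-fold lower, adjusted p = 2.83e-06). The mitochondrial Aldh1b1 fell (log2 difference -2.52 ± 0.51, 5.72-fold lower, adjusted p = 0.000783). Trim2, a ubiquitin ligase gene, fell (log2 difference -2.22 ± 0.26, 4.66-fold lower, adjusted p = 1.57e-06), with its 3 other probe sets passing in the same direction.

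At 6 h 933 genes were higher than at 2 h in WT cells (12.5% of genes) and 673 lower (9.05%). Over probe sets 1445 were higher and 1299 lower. The excess turned to 1291 higher and 1560 lower with arrays centred on their medians and to 2191 and 2393 with array weights. It also turned with no filter, without WT 2 h replicate 1 and within the cluster that holds 2 h replicates 2 and 3. This comparison uses the same 2 h arrays as the one above, with opposite sign, so error in a 2 h mean moves a gene away and back at once, and no count over the genes called at 2 h is read from it. Levels at each time are given beside the 6 h minus 2 h step. Some genes, such as Nup98 and Scrn3, were named for the size of that step, so their steps and p-values are selected. Nr4a1 measured 8.20 ± 0.71 before treatment, 12.42 ± 0.30 at 2 h, 10.42 ± 0.38 at 6 h and 9.04 ± 0.04 at 24 h (SD, n = 4, 3, 3 and 3), with a 6 h minus 2 h step of -1.996 ± 0.31, adjusted p = 0.000132. Zfp36 measured 6.65 ± 0.03 before treatment, 10.50 ± 0.04 at 2 h, 8.41 ± 0.72 at 6 h and 8.04 ± 0.41 at 24 h (step -2.09 ± 0.23, adjusted p = 3.95e-06). Ppp1r15a measured 6.40 ± 0.48 before treatment, 10.31 ± 0.29 at 2 h, 8.65 ± 0.26 at 6 h and 8.58 ± 0.12 at 24 h (step -1.66 ± 0.26, adjusted p = 0.000147). All 3 fell at 6 h and stayed above the untreated mean at 24 h.

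The 6 h means of Maff, Nup98 and Nr1d2 lay near the untreated means. Maff measured 2.72 ± 0.11 before treatment, 5.76 ± 0.91 at 2 h, 3.01 ± 0.10 at 6 h and 2.63 ± 0.16 at 24 h (step -0.76 or more negative, adjusted p = 2.92e-06), so its level was under log2 5 at all times but 2 h. Nup98, a nuclear pore gene, measured 7.38 ± 0.30 before treatment, 9.43 ± 0.39 at 2 h, 7.62 ± 0.40 at 6 h and 7.35 ± 0.24 at 24 h (step -1.82 ± 0.24, adjusted p = 2.54e-05). Nr1d2, a clock repressor also called REV-ERB beta, measured 7.49 ± 0.18 before treatment, 8.84 ± 0.13 at 2 h, 7.46 ± 0.14 at 6 h and 8.14 ± 0.23 at 24 h (step -1.37 ± 0.15, adjusted p = 5.92e-06). Among genes that had fallen, Bid measured 10.52 ± 0.12 before treatment, 8.65 ± 0.22 at 2 h, 9.61 ± 0.18 at 6 h and 10.01 ± 0.14 at 24 h (step 0.96 ± 0.15, adjusted p = 0.000114). Scrn3 measured 6.69 ± 0.15 before treatment, 5.04 ± 0.05 at 2 h, 7.25 ± 0.52 at 6 h and 5.83 ± 0.43 at 24 h (step 2.21 ± 0.23, adjusted p = 2.96e-06). Scrn3 stood above its untreated mean at 6 h and below it at 24 h. Rabgap1l (step at least 1.501, adjusted p = 1.69e-05), Tap2 (step 0.95 ± 0.16, adjusted p = 0.000245) and Map2k6, an activator of p38 (step 1.97 ± 0.49, adjusted p = 0.00638), also rose again.

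Some genes moved further in the same direction. Rag1 measured 11.63 ± 0.26 before treatment, 8.97 ± 0.30 at 2 h, 6.13 ± 0.63 at 6 h and 7.20 ± 0.19 at 24 h (step -2.84 ± 0.28, adjusted p = 2.14e-06). Wif1 measured 6.24 ± 0.65 before treatment, 9.92 ± 0.43 at 2 h, 12.15 ± 0.10 at 6 h and 11.36 ± 0.59 at 24 h (step 2.24 ± 0.30, adjusted p = 3.79e-05). Ramp3 measured 2.34 ± 0.24 before treatment, 6.53 ± 0.76 at 2 h, 8.66 ± 0.15 at 6 h and 8.10 ± 0.34 at 24 h (step 2.13 ± 0.46, adjusted p = 0.00242). The fall of Rag1 and the rise of Wif1 and Ramp3 each went further after 2 h. Sgip1 measured 3.66 ± 0.54 before treatment, 11.67 ± 0.62 at 2 h, 11.43 ± 0.47 at 6 h and 12.70 ± 0.12 at 24 h, with a step that did not pass (adjusted p = 0.617). Slc1a5 fell further (step -0.70 ± 0.15, adjusted p = 0.00253), and Ncl, which had not passed at 2 h, fell by 6 h (step -0.73 ± 0.13, adjusted p = 0.000609). Over all arrays 2744 probe sets passed for this step, against 1634 in a fit of the 2 groups alone and 1777 without 6 h replicate 3. Within the cluster of 2 h replicate 1, which has 1 array at each treated time, none passed.

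**Figure D4:**
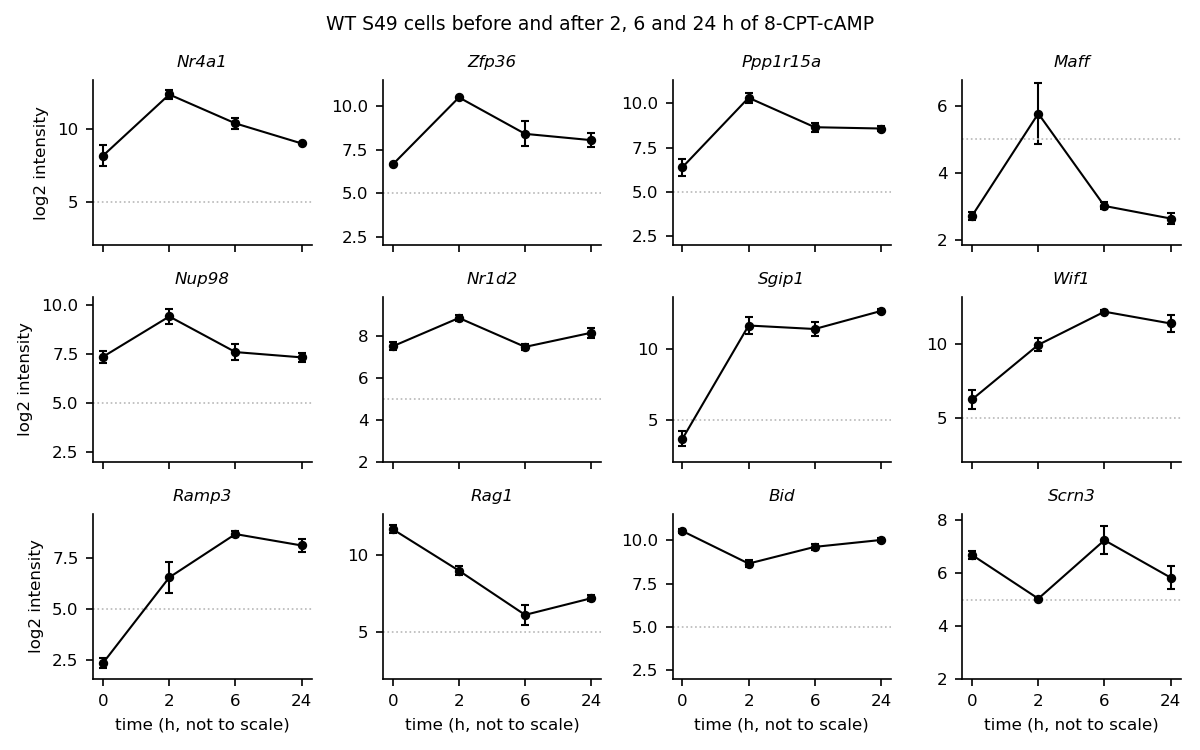
Points are group means and bars SDs of log2 intensity in WT cells at 0 h (n = 4), 2, 6 and 24 h (n = 3 each), with time on the x axis not to scale and each panel on its own y axis. The dotted line marks log2 5. Maff, Nup98 and Nr1d2 peak at 2 h and lie near the 0 h mean at 6 h, with Nr1d2 higher again at 24 h. Wif1, Ramp3 and Rag1 move further by 6 h.

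The D- line was also changed at 2 h, and a difference from WT passed for few genes. In D- cells 673 genes rose, of which 514 were among the 831 that rose in WT cells, and 985 fell, of which 686 were among the 1032 that fell in WT cells, with 1 gene called in opposite directions. The difference of response itself, tested as an interaction, passed for 27 of 12724 probe sets (0.212%), 5 higher in D- and 22 lower, while 737 had an unadjusted p under 0.05. These probe sets gave 18 genes, 12 of which were called in WT cells, against 25.1% of all genes. The interaction uses the same WT arrays as that call, so the 12 are no separate result. Grb7, an adaptor of receptor tyrosine kinases, measured 8.01 ± 0.53 at 2 h and 3.06 ± 0.05 untreated in D- cells, and 3.32 ± 0.33 at 2 h and 3.02 ± 0.05 untreated in WT cells (SD, n = 3, 4, 3 and 4). Its level rose above log2 5 in D- cells and lay under it in WT cells. The D- response was at least 3.01, and the difference of response passed at an adjusted p of 2.4e-07. Tnfsf4, the OX40 ligand, measured 7.98 ± 0.38 at 2 h and 4.86 ± 0.25 untreated in D- cells, and 4.59 ± 0.12 at 2 h and 4.53 ± 0.11 untreated in WT cells. Its D- response was at least 2.98, with WT means under log2 5 (adjusted p of the difference = 2.4e-07). Palld, the actin-binding palladin, measured 9.30 ± 0.36 at 2 h and 6.68 ± 0.40 untreated in D- cells, and 6.41 ± 0.05 at 2 h and 6.37 ± 0.14 untreated in WT cells (difference of response 2.58 ± 0.40, adjusted p = 0.00543).

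In the other direction, C4bp, a complement inhibitor gene, measured 4.13 ± 0.35 at 2 h and 4.06 ± 0.31 untreated in D- cells, and 6.80 ± 0.34 at 2 h and 3.96 ± 0.08 untreated in WT cells. Its WT response was at least 1.80, with both D- means under log2 5 (adjusted p of the difference = 0.000165). Carhsp1, an mRNA-binding protein gene, measured 8.36 ± 0.10 at 2 h and 8.16 ± 0.19 untreated in D- cells, and 9.17 ± 0.02 at 2 h and 8.07 ± 0.12 untreated in WT cells (difference of response -0.90 ± 0.16, adjusted p = 0.0152), but it did not pass without D- 2 h replicate 2, WT 2 h replicate 2 or WT 2 h replicate 3 (adjusted p 0.0531, 0.0524 and 0.0634). Ctdsp2, a small phosphatase gene, measured 9.48 ± 0.04 at 2 h and 9.71 ± 0.09 untreated in D- cells, and 10.36 ± 0.41 at 2 h and 9.45 ± 0.09 untreated in WT cells (difference of response -1.14 ± 0.21, adjusted p = 0.0191), and did not pass without D- 2 h replicate 3, WT 2 h replicate 2 or WT 2 h replicate 3 (adjusted p 0.0539, 0.0798 and 0.0768). Within the cluster of 2 h replicate 1 the WT response of Ctdsp2 was 0.52 (adjusted p = 0.11). Sgip1 rose in both lines, and measured 11.12 ± 0.37 at 2 h and 5.37 ± 0.28 untreated in D- cells, and 11.67 ± 0.62 at 2 h and 3.66 ± 0.54 untreated in WT cells. Its difference of response was -0.92 or more negative, and the size beyond that is not known, since the untreated WT mean lay under log2 5 (adjusted p = 0.0198). With a pseudocount of 16 the fitted difference was -1.53 and did not pass (adjusted p = 0.064). It did not pass either in a fit of these groups alone (0.084) or within the cluster of 2 h replicate 1 (-1.23, 0.83), without D- 2 h replicate 3 (adjusted p = 0.0677), without WT 2 h replicate 2 (0.0798) or without WT 2 h replicate 3 (0.0768). Leaving out 1 array moved the count of 27 to between 7 (without WT 2 h replicate 3) and 49 (without WT 2 h replicate 1). Grb7, Tnfsf4, Palld and C4bp passed with any 1 array left out, and Tnfsf4, Palld and C4bp did not within the cluster of 2 h replicate 1.

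**Figure D5:**
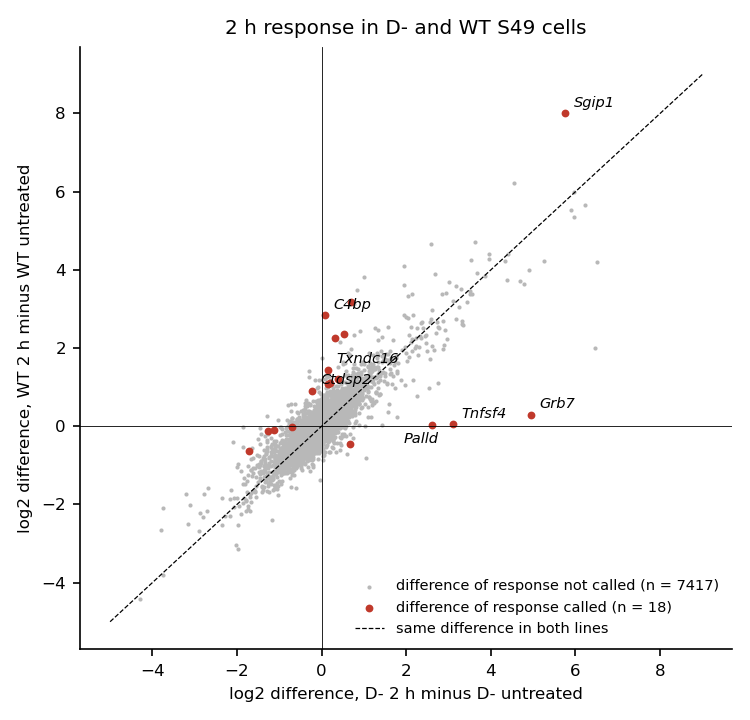
Each point is 1 of 7435 genes, with the log2 difference of 2 h minus untreated in D- cells on the x axis and in WT cells on the y axis. Red points are the 18 genes whose difference of response passed, and the dashed line marks an equal difference in both lines. Grb7, Tnfsf4 and Palld lie near the x axis and C4bp near the y axis, while most genes with large differences run along the dashed line.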

How the data were processed

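Per the labels, RNA of S49 cells was measured on expression arrays, whose probe set names have the Affymetrix form, and the deposited table holds GCRMA intensities on a linear scale for 22690 probe sets of 26 arrays, made by the authors per the submitters' processing notes, with the version not given in the sources used here. The GCRMA method corrects background by probe sequence, normalises by quantiles and compresses dim values, so levels under log2 5 are bounds. Intensities were turned into log2 with no pseudocount, and 64 control probe sets were left out. Of the 22626 others, 20380 had 1 gene symbol in the platform annotation, 691 several and 1555 none. Probe sets at log2 5 or more on at least 3 of 26 arrays were kept (12724). Means of 8 groups were fitted to all 26 arrays with limma 3.58.1 (R 4.3.3), using lmFit and eBayes, with Benjamini-Hochberg adjustment over all 12724. The fit was tested on simulated data. A gene is shown by its probe set of highest mean over all arrays (7435 genes). No replicates were identical, and median intensities over the arrays compared were 41.9 to 45.3. The number of arrays limits the precision. Genes named are members of fixed lists, the 30 leading called genes of each direction and genes whose response differed between lines. Called genes with the largest 6 h minus 2 h steps were added too. The leading genes had to show no overlap between the 2 h and untreated arrays, with at least 1 group mean at log2 5 or more. Members and lists were chosen with earlier results of these data known. Promoter windows are RefSeq's on GRCm38.p6. Lck and some other list genes were not analysed here. Alternatives are given in the closing part.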

Additional observations from a re-analysis of the deposited data

Results flagged for a closer look

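A set of 8 genes named in the text had a response at 2 h that differed between the lines by the interaction test. The fitted D- response minus the WT response was 4.64 for Grb7, 3.05 for Tnfsf4, 2.58 for Palld, -2.76 for C4bp, -2.26 for Sgip1, -1.30 for Txndc16, -1.14 for Ctdsp2 and -0.90 for Carhsp1, all on the log2 scale. Those of Grb7, Tnfsf4, C4bp and Sgip1 use group means under log2 5, so their sizes are not measured. With such means set at 5 they were 3.01, 2.98, -1.80 and -0.92, and with a pseudocount of 16 that of Sgip1 was -1.53 and did not pass (adjusted p = 0.064). Txndc16, a thioredoxin-domain gene, measured 6.23 ± 0.22 at 2 h and 6.09 ± 0.10 untreated in D- cells (SD, n = 3 and 4). In WT cells its arrays were at 7.87, 8.25 and 8.02 at 2 h, against 6.42, 6.31, 6.80 and 6.86 untreated. Its difference did not pass without WT 2 h replicate 2 (adjusted p = 0.0998), WT 2 h replicate 3 (0.0768) or D- 2 h replicate 2 (0.103). Nor did it without WT untreated replicate 1 (0.0656), D- untreated replicate 1 (0.0597) or D- untreated replicate 4 (0.0504). Within the cluster that holds 2 h replicates 2 and 3 its adjusted p was 0.0741.

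Single untreated WT arrays stood apart from the other 3 by Dixon's test for 7 of the 139 genes tested. Chance gives about 1 in 20, which over 139 genes is about as many as were found. Ifng and Tnfsf4 lay under log2 5, where values are compressed. Hk2 was at 10.28 on replicate 4 and at 9.06 to 9.26 on the others. Jak2 was at 8.01 on replicate 4 and at 7.58 to 7.65 on the others. Replicate 1 was highest for Zfp36 (6.70 against 6.63 to 6.64) and Carhsp1 (8.24 against 7.99 to 8.03), and lowest for Ifng (2.64 against 2.67 for each other array). Replicate 2 was highest for Tnfsf4 (4.70 against 4.47 to 4.48) and replicate 3 lowest for Chdh (9.90 against 10.08 to 10.11). Of these, the gap of Hk2 alone made the groups overlap.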

How the results depend on the processing

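No called named gene changed direction under the alternatives run, whereas 7 that were not called did (Bcl2l1, Ccnd2, Cd3e, Cd4, Max, Nr4a2 and, in WT cells, Palld), and so did the medians of 11 lists, all of size 0.14 or less. Of 3136 probe sets called at 2 h against untreated, 695 were called within the cluster of 2 h replicate 1, 4081 with the cluster as a block, and leaving out 1 array gave 2332 to 3014. More fell than rose (1472 higher and 1664 lower), which turned without 2 h replicate 1 (1565 and 1449), with no filter (1530 and 1505) and within the cluster of 2 h replicate 1 (374 and 321). For 6 h against 2 h, 2744 became 4584 with array weights, 1634 in a fit of those groups alone, 4138 with the cluster as a block, 0 within the cluster of 2 h replicate 1, and 1777 to 2648 with 1 array left out. Its excess of higher calls (1445 and 1299) turned with median centring (1291 and 1560), array weights (2191 and 2393) and within the other cluster (1724 and 1870). That excess also turned with no filter (1303 and 1320) and without WT 2 h replicate 1 (999 and 1033). For the difference between lines, 27 became 110 with array weights, 16 in a fit of those groups alone, 71 with the cluster as a block, 1 and 96 within the clusters, and 7 to 49 with 1 array left out, the lowest without WT 2 h replicates 3 (7, with 4 higher and 3 lower, against 5 and 22) and 2 (8). Same-numbered 2 h and untreated arrays deviated with correlations of 0.60, -0.33 and 0.29, so the numbers do not pair them. Numbers do follow the clusters, since replicate 1 of all 8 groups lay in 1 cluster and replicate 3 of all 8 in the other, and 2 h replicates 2 and 3 deviated most like untreated replicates 3 and 4. The replicate block gave 3825, 3581 and 55 calls for the 3 comparisons. Of 120 named called genes, 116 lost no call in any setting that tested them, other than the cluster of 2 h replicate 1, and Irgm1, Gnl3, Hk2 and Tob1 did. Dim genes removed by a stricter filter were not tested under it. Among them, Maff, Pde4b and Rgs3 were removed by the filter at log2 7. Maff was also removed by the filter over the 7 arrays compared. Means over all probe sets of a gene moved 9 called named genes by over 1.5 times, as well as Nr3c1 and Creb1, which were not called. Quantile normalisation, centring, the filters, a pseudocount of 16 and a trended robust fit kept the 2 h count within 1.5 times. Dim genes are limited by GCRMA's compression. The causes were not tested.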

Other observations

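Single genes of further lists changed at 2 h in WT cells. Most of these lists stood near the 25.1% of all genes called in either direction, but the TGF-beta and chaperone lists did not. By direction some were uneven, against 11.2% higher and 13.9% lower of all genes. The shares higher and lower were 24.2% and 3.03% for chromatin regulators and 21.1% and 5.26% for mRNA decay. They were 30.8% and 0% for clock genes, and 11.8% and 23.5% for migration genes. Of 33 measured chromatin regulators, 8 rose and 1 fell (27.3%), and without 2 h replicate 3 the count of risers was 3. Kdm6a, the histone demethylase UTX, had 7.48, 7.55 and 7.65 on the 2 h arrays, against 6.37, 6.15, 6.80 and 6.42 on the untreated arrays (log2 difference 1.12 ± 0.20, adjusted p = 0.000265). Kdm2b, another demethylase gene, had 10.73, 11.57 and 11.38 at 2 h, against 10.02, 10.17, 10.06 and 10.19 untreated (1.11 ± 0.25, adjusted p = 0.0017). Within the cluster of 2 h replicate 1 the difference of Kdm2b was 0.63 (adjusted p = 0.080). Hdac7, a histone deacetylase gene of thymocytes, fell, with 7.36, 7.81 and 7.45 at 2 h, against 8.47, 8.73, 8.79 and 8.73 untreated (-1.14 ± 0.17, adjusted p = 3.93e-05). Of 13 measured clock genes 4 rose (30.8%) and none fell, among them Per1 and Nr1d2 given above.

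Among 17 measured genes of lymphocyte migration, 2 rose and 4 fell (35.3%). Those that rose were Ccr7, the receptor that guides T cells to lymph nodes, and Selplg, the selectin ligand PSGL-1. Ccr7 was at least 1.46 on the log2 scale higher, with 5.95, 6.81 and 6.63 at 2 h, against 4.34, 4.54, 4.67 and 4.44 untreated (adjusted p = 2.86e-05). Selplg had 11.39, 11.23 and 11.03 at 2 h, against 9.89, 9.85, 9.54 and 9.45 untreated (1.53 ± 0.20, adjusted p = 4.34e-06). Of 19 measured genes of mRNA decay 4 rose and 1 fell (26.3%). Ago2, the slicing Argonaute, had 10.24, 10.51 and 11.07 at 2 h, against 8.32, 8.24, 8.18 and 8.41 untreated (2.32 ± 0.16, adjusted p = 7e-10).

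Of 20 measured cholesterol genes 4 rose and 2 fell (30%), and with 1 array left out 2 to 5 rose, the fewest without untreated replicate 2, and 1 to 4 fell. Stard4, a sterol carrier gene, had 11.06, 10.63 and 10.88 at 2 h, against 9.97, 8.98, 9.23 and 9.77 untreated (1.37 ± 0.23, adjusted p = 0.00013), and 0.85 over its probe sets. Pmvk, an enzyme of the mevalonate pathway, had 10.00, 9.80 and 10.39 at 2 h, against 9.10, 8.34, 8.65 and 9.46 untreated (1.18 ± 0.20, adjusted p = 0.000134). Neither gene's groups overlapped. Of 13 measured genes of the TGF-beta, SMAD and inhibitor of differentiation list 5 rose and 2 fell (53.8%, with 1 faller without untreated replicate 2), of 16 of polyamine, serine and amino acid synthesis 2 rose and 2 fell (25%), and of 24 chaperone genes 3 rose and none fell (12.5%, with 1 riser without 2 h replicate 3).

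For 33 genes, probe sets of the same gene were called in opposite directions, as among 742 called genes with more than 1 tested probe set. They were singled out after their values were seen. The 3 probe sets of Cdadc1 had log2 differences of -0.98, 0.92 and -1.33. Those of Dnajc3, a co-chaperone gene of the endoplasmic reticulum, had -1.56, -1.33 and 0.49, and those of Ythdf1, a reader of methylated adenosine in mRNA, had -0.78, 0.56 and -0.83. Which transcripts these probe sets match was not examined.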
